A study of Arabidopsis thaliana with 12 samples.

Results

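The Arabidopsis genes AGO2 (AT1G31280), NRPD1B (AT2G40030) and STRS1 (AT1G31970), which belong to or act with the RNA silencing machinery, were followed over 6 time points in leaves. They were chosen by name, as every probe whose transcript name starts with 1 of these locus codes. This gave 3 probes for each gene and 9 of the 15013 probes of the array, for 3 of its 5154 transcript names. Each probe is reported on its own and is named by the number in its probe name, because probes of a gene can disagree.

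RNA silencing uses small RNAs to find matching transcripts or chromosomal DNA. Dicer enzymes cut double-stranded RNA into small RNAs, ARGONAUTE proteins load them, and the loaded complex cleaves a transcript or directs DNA methylation. AGO2 is an ARGONAUTE with a known part in antiviral defence in leaves, and its transcript is a target of the microRNA miR403. NRPD1B, also called NRPE1, is the largest subunit of RNA polymerase V, the plant enzyme whose transcripts act as scaffolds for RNA-directed DNA methylation. STRS1 is a DEAD-box RNA helicase, named as a suppressor of stress responses together with the related helicase STRS2, and both are linked to the same methylation pathway.

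Leaf RNA came from 30-day-old wild type plants of the Columbia accession, Col-0, kept at 22 °C and 65% humidity in a photoperiod of 8 h light and 16 h dark. By the labels, no genotype, treatment or transgene separates the groups, which differ in sampling time. There were 2 arrays at each of 0, 4 and 8 h, titled light, and 2 at each of 12, 16 and 20 h, titled dark. The series title speaks of continuous light, so "light" and "dark" below are the names in the sample titles. Whether they match day and night at sampling was not tested. The labels do not say whether the 2 replicates of a time point came from separate plants, so the p-values measure the spread between these arrays, which may be technical.

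Each sample was hybridised to 1 Agilent array with a single dye, on which a probe's brightness stands for the amount of its transcript. The level of a probe is the log2 of its processed signal minus the 75th percentile of the array, so a difference of 1 is a 2-fold difference. Levels are compared between arrays for 1 probe, and between probes only to show that a probe is dim. Of the 9 probes' 108 spots, 107 were well above background by the scanner software's own mark, 2 carried its outlier mark and were left out, and 0 were saturated. Between 26.5 and 41.2% of probes were well above background on 11 of the arrays, and 52.2% on the second 16 h array, which stands apart. The 2 arrays of a time point correlated least at 16 h (r = 0.92) and most at 4 h (r = 0.982). The 0 and 4 h arrays lay on 1 slide and the other 8 on another, so the step from 4 to 8 h cannot be told apart from the slide. Dark minus light is touched too, since every dark array and only the 2 light arrays of 8 h lay on the second slide, and values within that slide are given beside it. The 5 leaf and 2 root marker genes listed for a check of the tissue label have no probe here, and the label could not be checked against them. In leaf RNA as a whole, fewer cells that express a gene and less RNA per cell cannot be told apart.

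NRPD1B was higher at the dark than at the light time points on 2 of its 3 probes. On probe 11263 the mean over 12, 16 and 20 h was 2.94-fold that over 0, 4 and 8 h, and on probe 11264 it was 1.57-fold. Both probes rose between 8 and 12 h. The third, probe 11265, passed no test.

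The level of NRPD1B probe 11263 was 0.49 and 0.33 on the arrays of 0 h, 0.66 and 0.52 at 4 h, -1.79 and -0.98 at 8 h, 1.40 and 0.78 at 12 h, 2.18 and 1.76 at 16 h, and 1.36 and 1.06 at 20 h. Every dark array was higher than every light array, a separation that 1.34% of the 6214 probes tested showed in this direction. The order of the means was 16, 20, 12, 4, 0 and 8 h, and within this order only the arrays of 20 and 12 h overlapped. From 8 to 16 h the means differed by 3.36 ± 0.33 on the log2 scale (SE, n = 2 arrays each), or 10.2-fold. A difference between the highest and lowest time point at least as large was found for 4.96% of the probes tested.

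The course of probe 11263 departed from a flat line in limma's F test over the 6 time points (adjusted p = 0.00337). The dark mean exceeded the light mean by 1.55 ± 0.19, with a 95% interval of 1.11 to 1.99 (limma adjusted p = 0.00185). Its steps show a dip and a recovery around 8 h. The level fell by 1.97 between 4 and 8 h (SE 0.33, 3.92-fold, adjusted p = 0.0245), which is the step between slides, and rose by 2.48 ± 0.33 between 8 and 12 h (5.57-fold, adjusted p = 0.00572). Both time points of that rise lay on 1 slide, but fitted within it the rise missed the threshold (adjusted p = 0.0517). Within the slide of 8, 12, 16 and 20 h the F test gave an adjusted p of 0.0205 (8.58% of probes were called there), and the dark time points exceeded 8 h by 2.81 ± 0.31 (adjusted p = 0.0136, a comparison that called 2.12% of probes). With the slide as a block, dark minus light was called for 11 of 6214 probes (0.177%), and probe 11263 was among them (adjusted p = 0.00706). Its estimate there, 2.81, is again that of dark minus 8 h within the slide. The 0 and 4 h arrays enter only the estimate of the spread, so this is not a second, separate comparison.

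The F test and the dark minus light call of probe 11263 held in each of the 12 fits that left out 1 array. The fall from 4 to 8 h lost its call without either 0 h array, either 4 h array, the first 8 h array or either 20 h array (adjusted p 0.0502 to 0.196), and also with the percentile over all probes (0.257), quantile normalization (0.0588), the series table (0.0614) and no filter on dim probes (0.125). When the arrays were fitted as 2 groups of 6, so that differences among the light or the dark time points count as error, dark minus light was no longer called (adjusted p = 0.127).

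NRPD1B probe 11264 showed a narrower rise, with its high levels at 12 and 16 h. Its level was -1.65 and -1.44 at 0 h, -1.62 and -1.51 at 4 h, -1.28 and -1.36 at 8 h, -0.64 and -0.25 at 12 h, -0.36 and -0.54 at 16 h, and -1.60 and -1.54 at 20 h. The 12 and 16 h arrays overlapped each other and lay above all the others, whereas the 20 h arrays overlapped those of 0 and 4 h. The F test passed (adjusted p = 0.00804), and the dark mean exceeded the light mean by 0.65 ± 0.11 with a 95% interval of 0.39 to 0.91 (adjusted p = 0.00796). The probe rose by 0.87 ± 0.19 between 8 and 12 h (1.83-fold, adjusted p = 0.0407) and fell by 1.12 between 16 and 20 h (SE 0.19, 2.17-fold, adjusted p = 0.0106). A cosine of 24 h also passed, with a fitted peak at 13.5 h (adjusted p = 0.0315), while that of probe 11263 did not (adjusted p = 0.0814, fitted peak 17.9 h) except under 4 alternatives, the slide as a block among them (adjusted p 0.00812 to 0.042).

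For probe 11264 the F test and dark minus light held without any 1 array, whereas the steps and the cosine did not, and no call of this probe held under every other setting. The rise from 8 to 12 h was called in 3 of the 12 such fits, those without the first 12 h array or either 16 h array (adjusted p 0.0704 to 0.186 in the other 9). The fall from 16 to 20 h lost its call without the first 20 h array (adjusted p = 0.0577), and the cosine lost its call without the first 0 h array or any 1 array of 4, 12 or 16 h (adjusted p 0.05001 to 0.0847). Within the slide of 8 to 20 h the dark time points exceeded 8 h by 0.50 ± 0.19 (adjusted p = 0.298), the F test gave an adjusted p of 0.0568, and neither step was called (adjusted p = 0.155 and 0.0549). With the slide as a block dark minus light was not called (adjusted p = 0.829), nor with both 16 h arrays left out (adjusted p = 0.0532), with 2 groups of 6 arrays (adjusted p = 0.252), with the percentile taken over all probes (adjusted p = 0.345), or with no filter on dim probes (adjusted p = 0.0803). The F test lost its call in these last settings too (adjusted p = 0.267 and 0.0874), and with the percentile over all probes the fall from 16 to 20 h shrank to -0.15 (adjusted p = 0.865).

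On NRPD1B probe 11265 the 12 h arrays stood highest, at -0.96 and -0.82. The other levels were -1.86 and -1.47 at 0 h, -1.88 and -2.09 at 4 h, -1.98 and -1.61 at 8 h, -3.24 and -1.5 at 16 h, and -6.07 and -2.09 at 20 h. The value of -6.07 is the 1 spot of the 108 that was not well above background, and the 2 arrays of 16 h and of 20 h lie far apart. Its F test (adjusted p = 0.307) and its dark minus light difference of -0.63 ± 0.65 (95% interval -2.12 to 0.86, adjusted p = 0.574) did not pass. The F test passed only where the second 20 h array was left out, so that 20 h rested on the 1 spot not well above background.

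**Figure D1:**
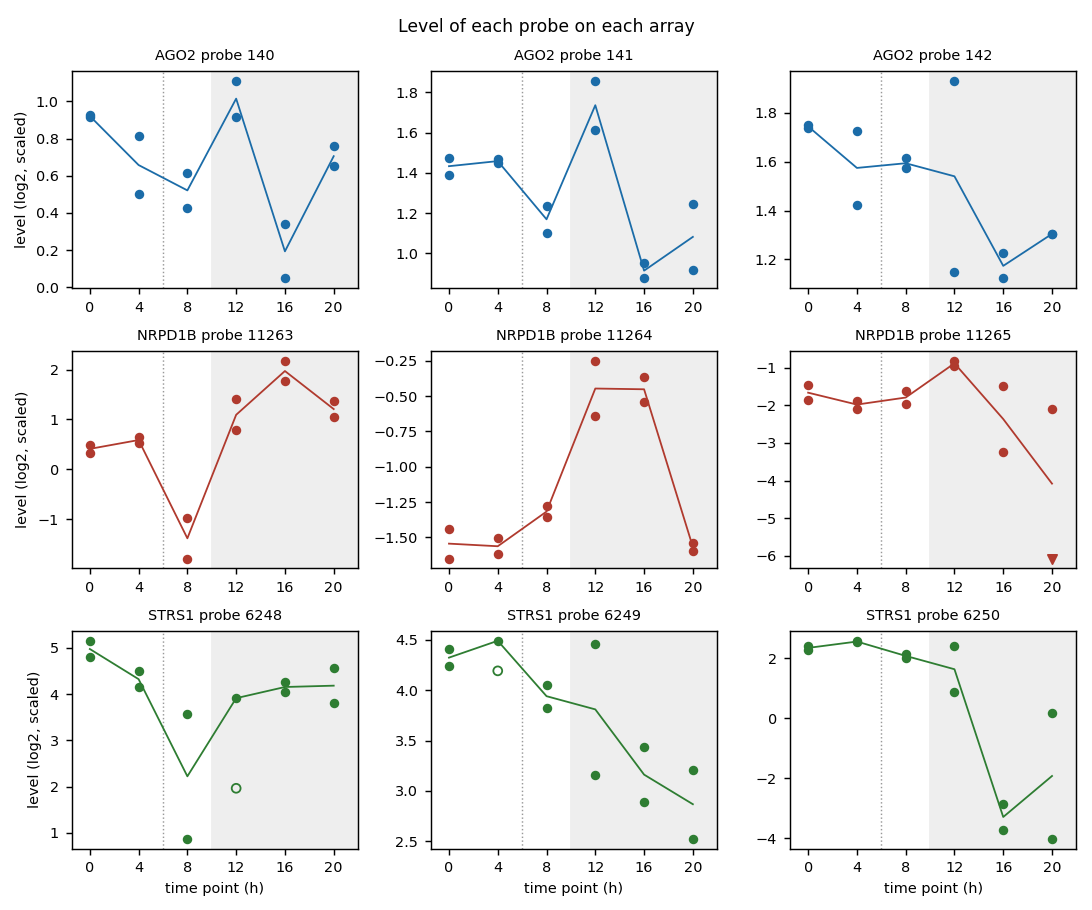
Level (log2 of the processed signal minus the array's 75th percentile) of each of the 9 probes against the time point in hours. Filled points are the 2 arrays of a time point, the line joins their means, open circles are spots left out for an outlier mark, the triangle is a spot not well above background, grey marks the time points titled dark, and the dotted line separates the slides. NRPD1B probe 11263 is lowest at 8 h and highest at 16 h, and STRS1 probe 6250 is lowest at 16 h.

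STRS1 gave the widest course of the 3 genes, on 1 probe. Probe 6250 was 11.5-fold lower over the dark than over the light time points and fell between 12 and 16 h. Probe 6249 was also lower at the dark time points but did not pass the test, and probe 6248 followed another course, with its lowest mean at 8 h.

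The level of STRS1 probe 6250 was 2.29 and 2.41 at 0 h, 2.53 and 2.59 at 4 h, 2.14 and 2.02 at 8 h, 2.41 and 0.87 at 12 h, -3.74 and -2.84 at 16 h, and 0.17 and -4.01 at 20 h. The light arrays lay between 2.02 and 2.59, while the 2 arrays of 12 h and of 20 h were far apart. The order of the means was 4, 0, 8, 12, 20 and 16 h. The arrays of 8 and 12 h overlapped, as did those of 20 and 16 h, and all arrays of 12 h lay above all those of 20 h. All 12 spots were marked well above background, although the linear signal went down to 14.8 on the dimmest against 2298 on the brightest.

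The 4 h mean of probe 6250 exceeded its 16 h mean by 5.85 ± 1.16, or 57.7-fold, and only 0.402% of the probes tested had a difference that wide. The F test passed (adjusted p = 0.0249), and dark minus light was -3.52 ± 0.67 with a 95% interval of -5.07 to -1.97 (adjusted p = 0.0121). The level fell by 4.93 between 12 and 16 h (SE 1.16, 30.4-fold, adjusted p = 0.0327). The cosine passed with a fitted peak at 5.3 h (adjusted p = 0.0303).

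Dark minus light of probe 6250 was called in each of the 12 fits without 1 array. The F test lost its call without any 1 array of 0, 4 or 8 h or the second 16 h array (adjusted p 0.0515 to 0.0661). The fall from 12 to 16 h lost its call in 10 of the 12 fits, all but those without a 20 h array (adjusted p 0.0534 to 0.145), and the cosine lost its call without the first 0 h array, either 4 h array, the second 8 h array, the second 12 h array or either 16 h array (adjusted p 0.0501 to 0.091). With no filter on dim probes the F test, cosine and fall were lost (adjusted p = 0.0703, 0.0763 and 0.0699), and the fall was lost with array weights (0.153). Without both 16 h arrays the F test and cosine were lost (0.105 and 0.139), and the cosine also with the slide as a block (0.0885). Within the slide of 8 to 20 h the dark time points were below 8 h by a difference of -3.27 ± 1.1, which did not pass (adjusted p = 0.257), and neither did the F test (adjusted p = 0.11) or the step from 12 to 16 h (adjusted p = 0.103). Dark minus light also lost its call with the slide as a block (adjusted p = 0.592), with both 16 h arrays left out (-2.47, adjusted p = 0.0857) and with 2 groups of 6 arrays (adjusted p = 0.127).

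The level of STRS1 probe 6249 was 4.24 and 4.41 at 0 h, 4.49 on the 1 array used at 4 h, 4.06 and 3.83 at 8 h, 4.46 and 3.16 at 12 h, 2.89 and 3.44 at 16 h, and 2.52 and 3.21 at 20 h. The 16 and 20 h arrays lay below all light arrays, and the 12 h arrays lay on either side of the 8 h arrays. Dark minus light was -0.97 ± 0.29 with a 95% interval of -1.66 to -0.29 and missed the threshold after adjustment (adjusted p = 0.0706), as did the F test (adjusted p = 0.137). The call depended on the setting. Without the first 12 h array the difference was -1.19 and passed (adjusted p = 0.0193), and it passed under 6 of 12 other scalings, filters and fits (adjusted p 0.0292 to 0.0492 in these 6), among them array weights, the trended robust fit and outlier-marked spots kept. It was -0.66 ± 0.41 within the slide of 8 to 20 h (adjusted p = 0.561).

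The level of STRS1 probe 6248 was 4.80 and 5.15 at 0 h, 4.50 and 4.15 at 4 h, 0.88 and 3.57 at 8 h, 3.91 on the 1 array used at 12 h, 4.26 and 4.05 at 16 h, and 4.56 and 3.81 at 20 h. The low mean at 8 h rests mainly on the first 8 h array. Dark minus light was 0.24 ± 0.49 with a 95% interval of -0.92 to 1.41 (adjusted p = 0.791), and without the first 8 h array it was -0.21. The F test did not pass (adjusted p = 0.202), but it did without the second 8 h array (adjusted p = 0.0139).

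STRS2 (AT5G08620), the related helicase, was lower at the dark time points on all 3 of its probes. On probe 5586 its level was 3.07 and 2.79 at 0 h, 3.35 and 3.35 at 4 h, 3.48 and 3.31 at 8 h, 2.89 and 2.96 at 12 h, 2.16 and 2.41 at 16 h, and 1.68 and 2.36 at 20 h. The arrays of 16 and 20 h lay below all others. Dark minus light was -0.81 ± 0.14 on this probe (1.76-fold lower, adjusted p = 0.00864), -0.59 ± 0.09 on probe 5585 (1.5-fold, adjusted p = 0.00512) and -0.49 ± 0.11 on probe 5587 (1.4-fold, adjusted p = 0.0219). All 3 also passed the F test (adjusted p 0.0115 to 0.0215) and the cosine, with fitted peaks between 5.98 and 6.63 h. The dark time points were also below 8 h within the slide of 8 to 20 h, with differences of -0.98, -0.69 and -0.46, but none passed (adjusted p 0.109 to 0.331). STRS1 probes 6249 and 6250 had fitted peaks at 4.86 and 5.28 h, of which the second passed. The fitted peak of STRS1 probe 6248 lay elsewhere, at 21.9 h, and its cosine did not pass (adjusted p = 0.252). The difference between the 2 genes' courses was not tested.

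**Figure D2:**
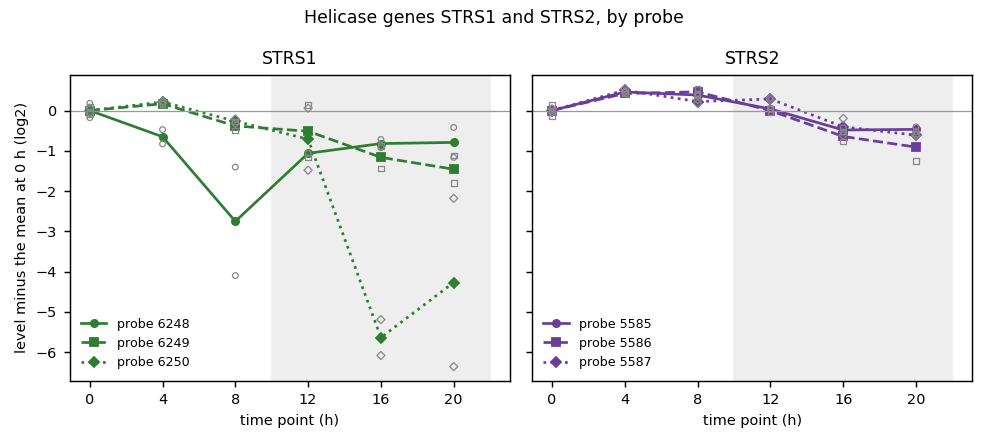
Level minus the probe's mean at 0 h (log2) against the time point in hours for the 3 probes of STRS1 (left) and of STRS2 (right). Filled symbols and lines are means of the arrays of a time point, small open symbols are single arrays, and grey marks the time points titled dark. The STRS2 probes run together, whereas STRS1 probe 6248 dips at 8 h and probe 6250 drops at 16 h.

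AGO2 varied least. Its 3 probes ranged over 0.82, 0.82 and 0.57 on the log2 scale between their highest and lowest time points, and between 81.4 and 93.3% of the probes tested ranged at least as widely. Probes 140 and 141 peaked at 12 h, had their lowest means at 16 h, and fell between these time points. No AGO2 probe passed the dark minus light test in the fit reported here. Probe 140 passed with normexp (-0.22, adjusted p = 0.0141), and a fit of probe 142 with 1 array left out is given below.

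The level of AGO2 probe 140 was 0.92 and 0.92 at 0 h, 0.50 and 0.81 at 4 h, 0.43 and 0.61 at 8 h, 0.92 and 1.11 at 12 h, 0.34 and 0.05 at 16 h, and 0.65 and 0.76 at 20 h. That of probe 141 was 1.39 and 1.48 at 0 h, 1.47 and 1.45 at 4 h, 1.24 and 1.1 at 8 h, 1.61 and 1.86 at 12 h, 0.95 and 0.88 at 16 h, and 0.92 and 1.25 at 20 h. On both probes the 16 h arrays lay below those of 0, 4, 8 and 12 h, and on probe 141 they overlapped those of 20 h. Probe 140 fell by 0.82 between 12 and 16 h (SE 0.20, 1.77-fold, adjusted p = 0.0344) and probe 141 likewise by 0.82 (SE 0.19, 1.77-fold, adjusted p = 0.0284).

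That fall was the only call on these probes in the fit reported here, and it hung on single arrays and on the setting. For probe 140 it was called in only 1 of the 12 fits without 1 array, the one without the first 16 h array (adjusted p 0.0529 to 0.127 in the others). For probe 141 it lost its call without any 1 array of 0, 4 or 12 h or the second 16 h array (adjusted p 0.0514 to 0.0933). Within the slide of 8 to 20 h neither fall passed (adjusted p = 0.101 and 0.103), nor with quantile normalization, the series table, no filter or array weights (adjusted p 0.068 to 0.161). The F test over all time points missed the threshold on both (adjusted p = 0.0941 and 0.0747). It passed on both with normexp (0.00051 and 0.0189), with probes well above background on all arrays only (0.0213 and 0.0131) and with the trended robust fit (0.0153 and 0.00743).

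The level of AGO2 probe 142 was 1.75 and 1.74 at 0 h, 1.73 and 1.42 at 4 h, 1.61 and 1.57 at 8 h, 1.15 and 1.93 at 12 h, 1.22 and 1.12 at 16 h, and 1.31 and 1.30 at 20 h. The 2 arrays of 12 h hold its second lowest and its highest value. Its F test did not pass (adjusted p = 0.431). Dark minus light was -0.30 ± 0.15 on probe 142 (95% interval -0.65 to 0.05, adjusted p = 0.245), -0.06 ± 0.11 on probe 140 (-0.32 to 0.20, adjusted p = 0.763) and -0.11 ± 0.11 on probe 141 (-0.36 to 0.14, adjusted p = 0.553). Without the second 12 h array the difference on probe 142 was -0.43 and passed (adjusted p = 0.0452).

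MIR403, the precursor of the microRNA that targets AGO2, has 2 probes on the array, both highest at 12 h. Probe 3440 had levels of -4.94 and -5.01 at 0 h, -4.46 and -4.33 at 4 h, -4.23 and -4.10 at 8 h, -3.51 and -3.80 at 12 h, -4.44 and -4.37 at 16 h, and -4.51 and -4.29 at 20 h. The 12 h arrays lay above all others and the 0 h arrays below all others, and the F test passed (range 1.32, adjusted p = 0.0175), but not within the slide of 8 to 20 h (adjusted p = 0.164). That of probe 3441 did not (range 1.09, adjusted p = 0.0796). Probe 3440 is dim, although its spots were marked well above background. On the second 20 h array its level of -4.29 was below the -4.01 of STRS1 probe 6250, whose linear signal there was 14.8. Both MIR403 probes are named for the precursor, not for the mature miR403. AGO2 probes 140 and 141 also had their highest mean at 12 h, but on probe 140 the arrays of 12 and 0 h overlapped. AGO2 probe 142 had its highest mean at 0 h.

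Counted over the 9 probes of the 3 genes, the F test called 3, against 21.5% of all probes tested, and dark minus light called 3, against 14.1%. These 3 were the same probes, with NRPD1B probes 11263 and 11264 higher at the time points titled dark (6.42% of all probes were) and STRS1 probe 6250 lower (7.64% were). The cosine called 2 of 9, against 6.53% of all probes. The 5 steps gave 7 calls among the 45 tests of the 9 probes. All 6214 probes tested, each at the same 5 steps, gave 2407 calls, which is a count of steps and not a share of the probes. Of the 7, 3 were falls between 12 and 16 h, a direction called for 4.91% of all probes at that step, and 2 were rises between 8 and 12 h (3.3%). The other two were the fall between 4 and 8 h on NRPD1B probe 11263 (1.09%) and that between 16 and 20 h on probe 11264 (10.3%). Within the slide of 0 and 4 h the difference between these time points was called for 0 of the 9, against 0.113% of all probes. The lowest adjusted p of the 9 there, 0.244 in limma, was that of STRS1 probe 6248 (4 minus 0 h -0.65 ± 0.23). With so few probes these shares describe the genes and set them apart from the rest of the array in no tested way.

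The probes of a gene disagreed in part. The difference of probes 11263 and 11264 of NRPD1B changed most between 8 and 20 h, by 2.84 ± 0.41. At 8 h probe 11263 was at its lowest, while at 20 h it was still high and probe 11264 had returned to its light level. The F test of this pair's difference over all 6 time points had an unadjusted p of 0.00146 in limma and an adjusted p of 0.0879 over the 3820 pairs of probes that share a name. For STRS1 probes 6248 and 6250 the difference changed most between 8 and 16 h, by 7.30 ± 1.25, and the F test over all time points had an unadjusted p of 0.0049 and an adjusted p of 0.142 in limma. After adjustment 0 of the 9 pairs within these genes passed in limma, as against 0.131% of all pairs, and 4 of 9 had an unadjusted p below 0.05, as against 17.3% of all pairs.

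Over the arrays, the correlation between probes of 1 gene was 0.79, 0.51 and 0.61 for the 3 AGO2 pairs, with 12 arrays each. It was 0.42 for NRPD1B probes 11263 and 11264, -0.25 for 11263 and 11265, and 0.30 for 11264 and 11265. For STRS1 it was 0.71 between probes 6249 and 6250 over 11 arrays, -0.04 between 6248 and 6249 over 10 arrays, and -0.05 between 6248 and 6250 over 11 arrays. The median over all pairs that share a name was 0.59, with quartiles of 0.27 and 0.82. The AGO2 pairs and 1 STRS1 pair thus lie near or above the middle of all pairs, and the pairs with probe 6248 or with NRPD1B probes 11263 and 11265 lie below the lower quartile. These values share arrays and scaling and are given as a description.

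Reading each gene from 1 value gave different answers. With the brightest probe of each name, NRPD1B passed both tests (adjusted p = 0.00508 for the F test and 0.00304 for dark minus light) and STRS1 passed neither (0.213 and 0.79). With the mean of a name's probes STRS1 passed both (0.0424 and 0.0254, dark minus light -1.38) and NRPD1B passed neither (0.0901 and 0.18, dark minus light 0.53). AGO2 passed neither test under either reading.

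Besides these 3 genes, 45 further genes and precursors of RNA silencing were listed, of which 12 have probes on the array, 30 in all. The F test called 4 of the 30 (13.3%, against 21.5% of all probes), namely the 3 STRS2 probes and MIR403 probe 3440. Dark minus light called 2 of the 30 higher and 3 lower, against 6.42% and 7.64% of all probes tested. The median difference was 0.10 against -0.07 over all probes tested, and the median range was 0.66 against 1.37. The higher probes both belong to RDR2, the RNA-dependent RNA polymerase that makes double-stranded RNA in the methylation pathway.

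RDR2 probe 4633 had levels of 1.13 and 1.21 at 0 h, 1.42 and 1.56 at 4 h, 1.44 and 1.39 at 8 h, 1.58 and 1.93 at 12 h, 1.90 and 1.66 at 16 h, and 1.86 and 1.96 at 20 h. Every dark array was again higher than every light array, and the difference was 0.45 ± 0.11 (1.37-fold, adjusted p = 0.0306). On RDR2 probe 4631 it was 0.38 ± 0.09 (1.3-fold, adjusted p = 0.0334), and on probe 4632 it was 0.29 ± 0.10 and did not pass (adjusted p = 0.103). On the slide of 8 to 20 h alone, dark minus 8 h was 0.40, 0.35 and 0.24 on probes 4633, 4631 and 4632, and none passed (adjusted p 0.42 to 0.611). NRPD1A, the largest subunit of the related RNA polymerase IV, showed dark minus light differences of 0.20, 0.01 and -0.01 on its 3 probes, none of which passed. The 12 probes of the Dicer genes DCL1 to DCL4 and the 7 of the MIR162 and MIR168 precursors, whose microRNAs target DCL1 and AGO1, passed neither test.

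**Figure D3:**
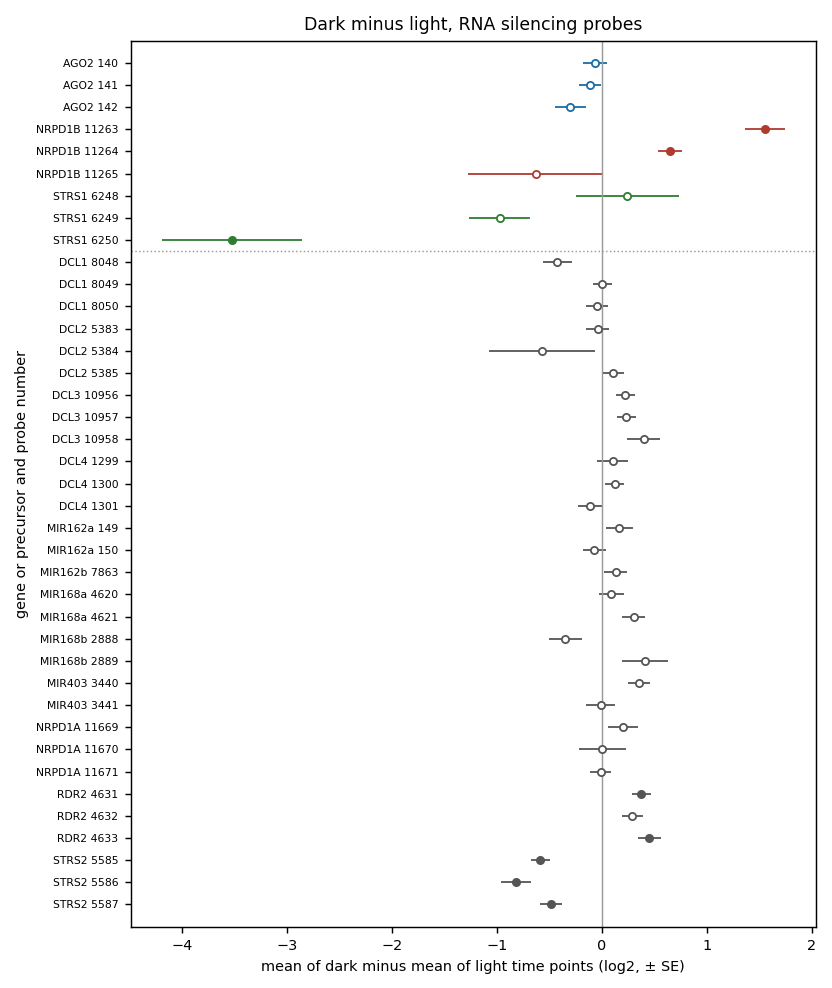
Mean of the dark minus mean of the light time points (log2, horizontal axis, bars ± SE of the fitted difference) for the 9 probes of AGO2, NRPD1B and STRS1, above the dotted line, and the 30 probes of other RNA silencing genes and precursors. Filled points passed at an adjusted p under 0.05. NRPD1B probe 11263 at 1.55 and STRS1 probe 6250 at -3.52 lie farthest from 0.

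Transcripts with the most similar course were sought for the brightest probe of each gene, by Pearson correlation over the arrays with about 247 named transcripts that passed the F test. For NRPD1B probe 11263 these were COR15A (r = 0.94), the clock gene PRR3 (r = 0.88) and COR15B (r = 0.88), over 12 arrays. COR15A and COR15B are cold-regulated genes whose products protect chloroplast membranes during freezing. All 3 shared with probe 11263 a lowest mean at 8 h and a highest at 16 h. NRPD1B probes 11264 and 11265 instead had their highest mean at 12 h and their lowest at 20 h. Among the other clock genes, r was 0.86 for PRR5 and 0.76 for TOC1, known as genes of the afternoon and evening. It was -0.75 for LHY and -0.61 for CCA1, known as genes of the dawn, and 0.31 for PRR7 and -0.22 for PRR9. By their titles, the arrays of 16 h held the highest means of PRR5 and TOC1. Those of 12 h held the highest of PRR7 and PRR9, and those of 8 h the highest of LHY and CCA1. The genes of the dawn were thus highest at the end of the time points titled light, though only slightly above 4 h. Means at 4 and 8 h were 6.48 and 6.55 for CCA1 probe 10604, and 8.01 and 8.21 for LHY probe 7568. The arrays of 4 and 8 h lay on different slides. The genes of the afternoon and evening were highest at a time point titled dark. Read as day and night, the titles do not match these known times, and the reason was not tested.

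The closest transcripts were less similar for the other genes. For AGO2 probe 142 they were MYB45, a MYB transcription factor gene (r = 0.79), the long non-coding RNA locus AT3G52535 (r = 0.70) and PIN3, an auxin efflux carrier gene (r = 0.70), over 12 arrays. For STRS1 probe 6248 they were the non-coding RNA loci AT2G42388 (r = 0.80, 10 arrays) and AT1G69572 (r = 0.71, 11 arrays), and TSB1, a tryptophan synthase subunit gene (r = 0.69, 11 arrays). The arrays of a time point share their sampling, and the transcripts were picked for the highest r, so these values are descriptions.

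**Figure D4:**
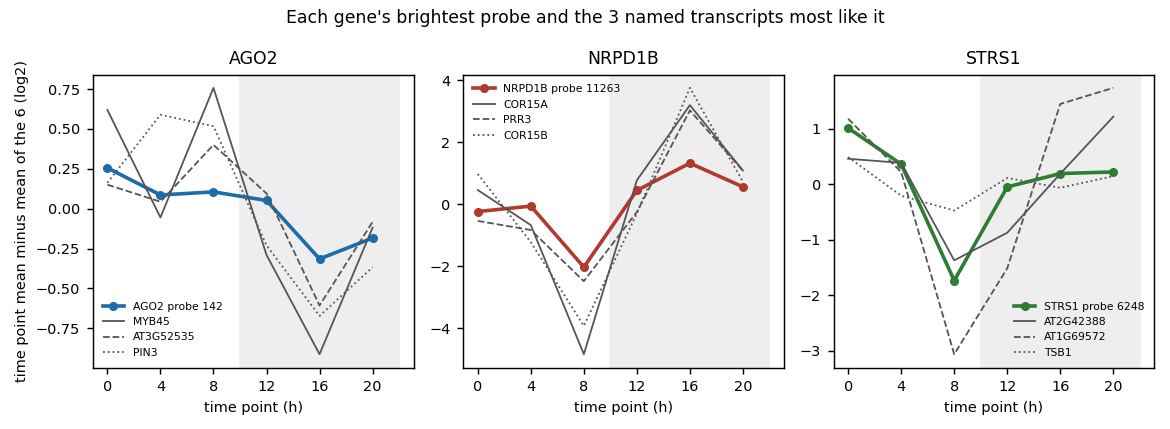
Mean level at each time point minus the mean of the 6 time points (log2) against the time point in hours, for the brightest probe of AGO2, NRPD1B and STRS1 (coloured, thick) and the 3 named transcripts with the highest Pearson correlation to it (grey). Grey shading marks the time points titled dark. NRPD1B probe 11263, COR15A, PRR3 and COR15B all have their lowest mean at 8 h and their highest at 16 h.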

How the data were processed

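Leaf RNA (0.5 µg per sample, per the labels' protocols) was measured on 12 one-dye Agilent arrays. Per the file headers, the authors quantified spot intensity, on a linear scale, in Agilent Feature Extraction 10.5.1.1, with no scaling between arrays recorded. A deposited table of the whole series gives log2 values made in a way not given in the sources used here. Each of its columns correlated with the scanner values at 0.995 or more, with slopes of 0.956 to 1.02 (1.28 for the second 16 h array) and medians of 1.37.

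Groups came from the sample titles. The level is log2(processed signal) less the 75th percentile, on that array, of the 2876 probes that were well above background everywhere. Control spots (536) and outlier-marked spots were left out. The 6214 probes tested had, for 1 or more time points, both arrays well above background. Models were fitted probe by probe with limma 3.58.1 in R 4.3.3 (1 mean per time point, 6 residual and 1.82 prior degrees of freedom; the F test is approximate for the 2 probes with a missing spot). P-values were adjusted by Benjamini-Hochberg over all probes tested, within each comparison and step, with a threshold of 0.05. The cosine of 24 h was fitted without time point means, and pairs of probes that share a name were tested on their difference per array. Fits were checked on simulated data in which few probes changed and the arrays varied independently. There the F test called 0% of 2-fold and 26% of 4-fold changes at 1 time point, and dark minus light 52 and 89%. The cosine called 16 and 61%, the step from 12 to 16 h 6 and 48%, and the F test of probe pairs 0 and 34%. In the data more probes passed each test of single probes, which loosens the adjustment, and slides and arrays differ. These rates therefore need not hold for the tests reported. A test that did not pass still does not show that a level was steady. Alternatives were other scalings, normexp (offset 50, on median spot and background signals, since the mean spot signal is not among the columns used here), filters, weights, blocks, single slides and arrays left out. The number of arrays limits the precision.

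Gene symbols came from the RefSeq gene table of assembly TAIR10.1, in which all 3 genes matched by locus code. The headers name another build, so no coordinates are given, and probe sequences are not used here. The 3 genes and all lists were chosen with earlier results of these data known. Named are all probes of the 3 genes, the listed silencing genes on the array, with values mainly for those that passed a test, and the 3 transcripts most like each gene's brightest probe, with clock genes for reference. All 21 probes of the 7 clock genes passed the F test.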

Additional observations from a re-analysis of the deposited data

How the results depend on the processing

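Counts of calls over all probes and over the 9 probes moved with the settings by over 1.5 times as follows, from 1336 and 3 (F test), 874 and 3 (dark minus light), 406 and 2 (cosine), 2407 and 7 (steps) and 5 and 0 (probe pairs). With the percentile over all probes, dark minus light called 327 and the cosine 219 and 1. With quantile normalization or the series table the steps called 3 of the 9 probes' 45, and with the series table the cosine called 1. With normexp the 9 probes had 5 F test, 5 dark minus light and 11 step calls, and pairs 357 and 4. Without a filter on dim probes the F test called 394 and 1, dark minus light 306, the cosine 130 and 0, steps 639 and 1, and pairs 0. With probes well above background on all arrays only, the F test called 5 of the 9, the cosine 698, and pairs 33 and 1. Array weights gave 1 cosine and 3 step calls among the 9, and 45 and 1 pairs. The trended robust fit called 5 of the 9 in the F test, 626 in the cosine and 2 pairs. Within slide 1 the F test, which is there the step, called 7 and 0, and pairs 0. Within slide 2 the F test called 533 and 1, dark minus light 132 and 1, steps 643 and 0, and pairs 0. With the slide as a block dark minus light called 11 and 1, and with 2 groups of 6 arrays 2 and 0. With both 16 h arrays left out, chosen after seeing the data, dark minus light called 1 of the 9, the cosine 0, and steps 842 and 3. With the brightest probe of each name the F test called 487 and 1, dark minus light 330 and 1, the cosine 124 and 0 and steps 834 and 2. With the mean of a name's probes these were 505 and 1, 336 and 1, 133 and 0, and 1033 and 0. Fewer features or arrays enter several of these fits; otherwise the cause was not tested.

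Leaving out 1 array gave 789 to 2657 calls in the F test (2 to 4 of the 9), 516 to 1487 in dark minus light (3 to 4), 213 to 404 in the cosine (0 to 2), 1351 to 5199 in the steps (2 to 6) and 0 to 227 pairs (0 to 1). The highest F test, dark minus light, step and pair counts came without the first 16 h array. Where a fit left 1 array at a time point, that array is assumed to vary like the others.

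Dark minus light turned its sign on probes where it was not called in the fit reported: AGO2 probe 140 (0.12 with the slide as a block and within slide 2, 0.16 without both 16 h arrays, but called at -0.22 with normexp), AGO2 probe 141 (0.10 with normexp, 0.0749 with the slide as a block and within slide 2, 0.0555 without both 16 h arrays), NRPD1B probe 11265 (0.0322 without the first 20 h array, in a range of -1.29 to 0.0322 over the arrays left out) and STRS1 probe 6248 (-0.21 without the first 8 h array, in a range of -0.21 to 0.69, and -0.0821 with outlier-marked spots kept, also chosen after seeing the data). The called differences kept their direction. The median dark minus light over all probes was -0.07, and -0.18 with the percentile over all probes, -0.16 with quantile normalization or the series table, and 0.19 without a filter. Rises were 45.7% of dark minus light calls, 63.8% without the first 16 h array and 35.8% without both.

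Samples that share a replicate number deviated together only weakly (median r 0.067, range -0.057 to 0.177 over 15 pairs of time points, 5 of them over 0.1). A replicate block moved the pair count from 5 to 0 and changed the other counts, such as the F test's 1364, by less than 1.5 times.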
